A study of Rattus norvegicus with 19 samples.

Results

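The genes described here are 8 genes used as marks of fat cells: Adipoq, Lep, Cfd, Retn, Plin1, Cidec, Fabp4 and Ucp1. They were chosen by name as an adipocyte set for a heart model that includes a high-fat diet, and all 8 are among the 17455 genes of the count files. RNA was sequenced from 19 heart libraries of male Sprague-Dawley rats, which were 24 weeks old when housed. Heart failure with preserved ejection fraction (HFpEF) was induced with the nitric oxide synthase inhibitor L-NAME and a lard diet, and the drugs tested afterwards were empagliflozin (EMPA), an SGLT2 inhibitor, and pirfenidone (PFD), an antifibrotic agent. The tissue is labelled heart, and the study's methods name the left ventricle.

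The 3 control 5w libraries came from rats on normal chow without L-NAME, taken at week 5, and the 3 control 9w libraries from such rats at week 9. The 3 HFpEF libraries came from rats at week 5 after 5 weeks of L-NAME at 0.5 g/L in the drinking water with a diet in which lard gave 60% of the kilocalories. The other 4 groups had the same induction and then 4 weeks of daily gavage up to week 9. Untreated rats (3 libraries) received phosphate-buffered saline, EMPA rats (2 libraries) 0.35 g/kg/d of empagliflozin, PFD rats (2 libraries) 0.3 g/kg/d of pirfenidone, and EMPA + PFD rats (3 libraries) both drugs at these doses. The methods give the induction as 5 weeks, while the discussion of the study speaks of it as going on to week 9.

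White fat cells store triglyceride in a single large droplet and release hormones called adipokines, while brown fat cells burn fat to make heat. The heart carries fat around its vessels and under its outer surface, and ventricular muscle itself holds few fat cells. Heart muscle burns fatty acids and makes many of the enzymes and transporters that fat cells also make, so only part of an adipocyte gene set is particular to fat cells.

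Library totals ran from 7430539 to 13017754 counts. Levels are given as counts or as CPM, the count scaled to the library total with edgeR's trimmed mean of M-values. A floor of 3 counts corresponded to 0.215 to 0.399 CPM, depending on the library. Intervals and floors cover counting error only. Where the libraries of 2 groups are said not to overlap, the share of all genes that separate likewise was not counted. Such statements describe the values and are no test.

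Some libraries stood apart before any comparison. All hearts are labelled male, yet the Y-linked gene Eif2s3y had 0 counts in HFpEF replicates 1 and 3, in the 3 untreated and in the 2 PFD libraries, against 613 to 1321 counts in the other 12. At week 9 the untreated and PFD libraries therefore differ in Eif2s3y from all control, EMPA and EMPA + PFD libraries. In the comparisons of untreated with control 9w, EMPA or EMPA + PFD, the condition and the absence of Eif2s3y cannot be told apart. The same holds for the EMPA main effect, which sets EMPA and EMPA + PFD libraries against untreated and PFD libraries. HFpEF was the 1 group with libraries of both states, so a term for Eif2s3y presence in the model, given below as an alternative, is set by HFpEF replicate 2 against replicates 1 and 3 alone, and does not separate sex from other differences of that library. The atrial gene Sln reached 1387 counts in control 9w replicate 1, 6975 in control 9w replicate 3 and 6378 in untreated replicate 2, against 2 to 49 in the other 16 libraries.

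The label was checked against the counts first. Adipoq, Plin1 and Cidec, the members most particular to fat cells, were together above the floor of 3 counts in 4 of 19 libraries, at least 1 of them was above it in 8, and none was in 11. Of the other adipocyte-restricted genes, Acvr1c had at most 1 count and Slc7a10 at most 6 in any library. Adrb3, the adrenergic receptor of fat cells, also had at most 6, reached in EMPA replicate 1. Thrsp, a lipogenic gene, peaked at 17 counts in HFpEF replicate 1. Ca3, another gene of the lists read here, ran from 0 counts in control 9w replicate 2 to 275 in untreated replicate 2. It had 185 counts in HFpEF replicate 1, and 125 and 77 in control 5w replicates 2 and 3. Adipoq, Plin1, Cidec, Acvr1c, Slc7a10 and Adrb3 were thus at or near 0 in most libraries, while Ca3 varied between libraries. Cfd and Fabp4 were the only members above the floor in all 19.

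**Figure D1:**
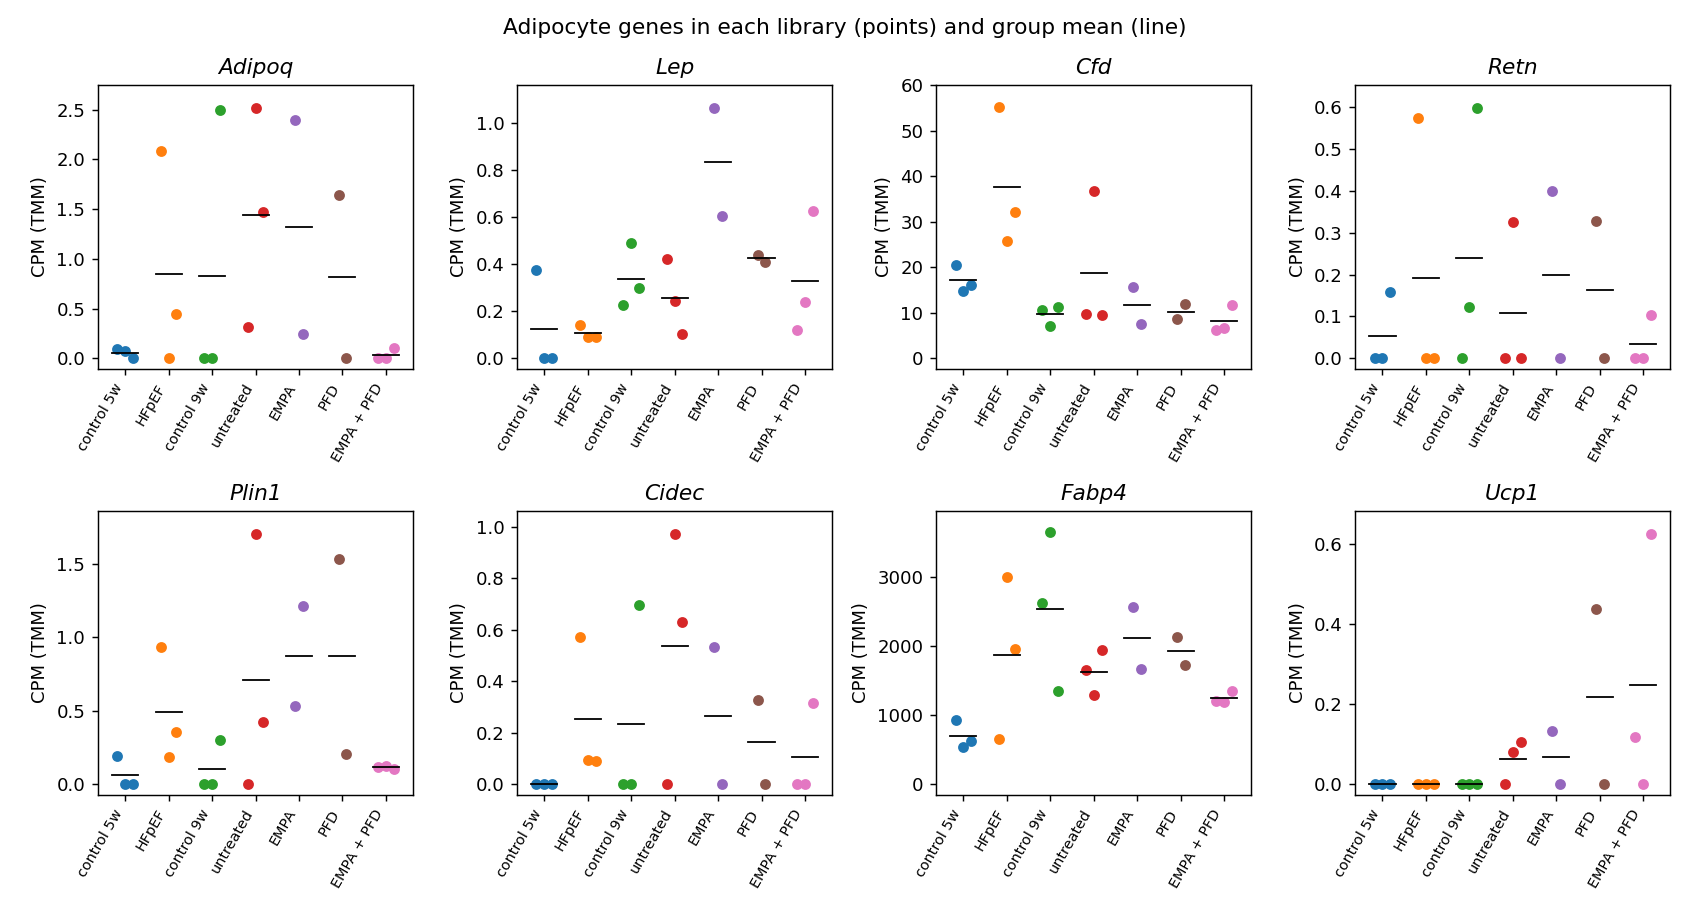
Level of each of the 8 genes in CPM (vertical axis, from 0, a different range in each panel) for the 19 libraries in 7 groups (horizontal axis), with points for libraries and a line for each group mean. Adipoq, Plin1, Cidec and Retn were high in 1 or 2 libraries of a group and near 0 in the rest, whereas Cfd and Fabp4 were present in every library.

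Adiponectin, encoded by Adipoq, is the most abundant hormone of white fat cells. Adipoq had 1, 1 and 0 counts in the control 5w libraries, 29, 0 and 5 in HFpEF, 0, 0 and 25 in control 9w, 3, 31 and 14 in untreated, 18 and 2 in EMPA, 15 and 0 in PFD, and 0, 0 and 1 in EMPA + PFD, each in order of replicate. It was high in 6 libraries spread over 5 groups, and within HFpEF, control 9w, EMPA and PFD a single library held most of the counts. Untreated was the only group with 10 or more counts in more than 1 library. The group means ran from 1.44 CPM in untreated (SD 1.10, n = 3), 1.32 in EMPA (SD 1.52, n = 2), 0.842 in HFpEF (SD 1.10, n = 3), 0.831 in control 9w (SD 1.44, n = 3) and 0.821 in PFD (SD 1.16, n = 2) down to 0.0572 in control 5w (SD 0.0503, n = 3) and 0.0348 in EMPA + PFD (SD 0.0603, n = 3). Every gap between neighbours in that order was smaller than the larger of the 2 groups' SDs.

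Pooled over each group, HFpEF held 34 Adipoq counts against 2 in control 5w, a ratio of 17.0 with a 95% exact counting interval of 4.36 to 146. Replicate 1 gave 29 of the 34 counts, and the edgeR test over libraries gave an adjusted p of 0.182. At week 9 untreated held 48 counts and control 9w held 25, a ratio of 1.66 (1.00 to 2.81), and all 25 control counts lay in replicate 3, the library with the highest Sln. EMPA + PFD held 1 count against 48 in untreated, a ratio of 0.0247 (0.000613 to 0.144), with every EMPA + PFD library below every untreated library and an edgeR adjusted p of 0.126. With Eif2s3y presence in the model the fitted log2 values turned from 3.70 to -2.46 at week 5 and from 0.74 to -5.97 at week 9. With EMPA + PFD the value turned from -4.88 to 1.83. Control 9w held 25 counts against 2 in control 5w, both without L-NAME, a ratio of 16.7 (4.16 to 145). The edgeR adjusted p was 0.157, and without control 9w replicate 3 the fitted log2 value turned from 3.69 to -2.46.

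Leptin, encoded by Lep, is the fat-cell hormone that reports energy stores to the brain. Lep counts stayed between 0 and 8 in all 19 libraries, with the highest in EMPA replicate 1. Control 5w had 4, 0 and 0, HFpEF 2, 1 and 1, control 9w 2, 4 and 3, PFD 4 and 4, and EMPA + PFD 1, 2 and 6. EMPA replicates 1 and 2 held 8 and 5 Lep counts, and untreated hearts held 4, 3 and 1. The pooled ratio was 3.23 (1.24 to 8.99), an interval that covers counting error only. HFpEF and control 5w held 4 counts each, a ratio of 1.00 (0.186 to 5.37). Lep did not follow Adipoq: HFpEF replicate 1, with 29 Adipoq counts, had 2 Lep counts. The mean of EMPA was 0.836 CPM (SD 0.324) and that of PFD, the next group, 0.425 (SD 0.0188). That gap was larger than either SD, but each SD came from only 2 libraries, and both PFD libraries had 4 counts. The other groups lay between 0.108 in HFpEF (SD 0.0306) and 0.339 in control 9w (SD 0.138), with gaps between neighbours smaller than the larger SD. Lep did not pass the count filter of the fit. In the 5 alternatives that kept it, the adjusted p of EMPA against untreated was 0.637 to 1 and Lep was not called.

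Resistin, encoded by Retn, is a small secreted protein of rodent fat cells. Retn was at 0 in 11 libraries, and its highest counts were 8 in HFpEF replicate 1, 6 in control 9w replicate 3, 4 in untreated replicate 2, and 3 in both EMPA replicate 1 and PFD replicate 1. All 5 of these libraries were among the 6 with 10 or more Adipoq counts. In the other 14 libraries Retn had at most 2 counts. It did not pass the filter, and the 1 alternative that kept it gave an adjusted p of 0.515 at week 5. The group means ran from 0.240 CPM in control 9w (SD 0.316) through 0.200 in EMPA (SD 0.282), 0.191 in HFpEF (SD 0.331), 0.164 in PFD (SD 0.232), 0.108 in untreated (SD 0.187) and 0.0530 in control 5w (SD 0.0919) to 0.0348 in EMPA + PFD (SD 0.0603), with each gap between neighbours smaller than the larger SD.

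Adipsin, or complement factor D, encoded by Cfd, activates the alternative complement pathway and is secreted by fat cells, and also by macrophages. Cfd stood at 20.5, 14.9 and 16.1 CPM in control 5w, 55.3, 25.9 and 32.1 in HFpEF, 10.6, 7.13 and 11.4 in control 9w, 9.70, 36.7 and 9.59 in untreated, 15.7 and 7.53 in EMPA, 8.54 and 11.8 in PFD, and 6.15, 6.69 and 11.8 in EMPA + PFD. At week 5 all 3 HFpEF libraries lay above all 3 controls, and how many of all genes separate likewise was not counted. At week 9 untreated replicates 1 and 3 lay within the control range and replicate 2 far above it. The means were 37.7 CPM in HFpEF (SD 15.5), 18.7 in untreated (SD 15.6), 17.2 in control 5w (SD 2.98), 11.6 in EMPA (SD 5.78), 10.2 in PFD (SD 2.32), 9.70 in control 9w (SD 2.26) and 8.21 in EMPA + PFD (SD 3.12). The gap between HFpEF and untreated was larger than either group's SD, and each other gap between neighbours was smaller than the larger of the 2 SDs.

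Cfd did not pass the threshold in any comparison of the edgeR fit over all genes, in which a gene was called when its adjusted p was under 0.05 and its log2 change was 1 or more either way. At week 5 its log2 fold change was 1.14 ± 0.47 (SE), with an adjusted p of 0.0961. Without untreated replicate 2, a library outside that contrast, the log2 value stayed at 1.14 and Cfd was called, and it was also called without the 3 libraries high in Sln. Without HFpEF replicate 1 it was 0.76. Over both weeks together, 6 diseased libraries against 6 controls, the log2 fold change was 1.04 ± 0.34 with an adjusted p of 0.114, DESeq2 called Cfd with 1.03, and without untreated replicate 2 the edgeR value was 0.56. EMPA + PFD against untreated gave -1.19 ± 0.49 with an adjusted p of 0.109. That value rested on untreated replicate 2, without which it was -0.23, while without untreated replicate 1 it was -1.49 and passed the threshold.

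Perilipin 1, encoded by Plin1, coats the lipid droplet of fat cells and controls access of lipases to it. Plin1 had 2, 0 and 0 counts in control 5w, 13, 2 and 4 in HFpEF, 0, 0 and 3 in control 9w, 0, 21 and 4 in untreated, 4 and 10 in EMPA, 14 and 2 in PFD, and 1 in each EMPA + PFD library. HFpEF and control 5w met at 2 counts, and the untreated and control 9w libraries overlapped at 0. EMPA, with a mean of 0.873 CPM (SD 0.482, n = 2), and PFD, with 0.869 CPM (SD 0.939, n = 2), had the highest means, followed by untreated with 0.709 (SD 0.888) and HFpEF with 0.491 (SD 0.392). EMPA + PFD had a mean of 0.114 CPM (SD 0.00835), control 9w 0.0997 (SD 0.173) and control 5w 0.0628 (SD 0.109), and every gap between neighbours was smaller than the larger of the 2 groups' SDs.

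Pooled Plin1 counts were 19 in HFpEF against 2 in control 5w, a ratio of 9.51 (2.29 to 84.2), and 25 in untreated against 3 in control 9w, a ratio of 7.20 (2.20 to 37.2). The edgeR adjusted p was 0.154 at week 5, 0.306 at week 9 and 0.142 for both weeks together. EMPA + PFD held 3 counts against 25 in untreated, a ratio of 0.142 (0.0275 to 0.466), with an adjusted p of 0.188. Untreated replicate 2 carried 21 of those 25 counts, and the fitted log2 difference was -2.58 with it and -0.82 without it.

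Cidec promotes fusion of small lipid droplets into a large one. Cidec was at 0 in 10 libraries, including all of control 5w, and its counts were 8, 1 and 1 in HFpEF, 0, 0 and 7 in control 9w, 0, 12 and 6 in untreated, 4 and 0 in EMPA, 3 and 0 in PFD, and 0, 0 and 3 in EMPA + PFD. It was detected in all 3 HFpEF libraries and in none of control 5w, with 10 pooled counts at least 3.34-fold above the floor of 3 counts over the control group. HFpEF replicate 1 supplied 8 of those 10 counts. The means were 0.535 CPM in untreated (SD 0.494), 0.266 in EMPA (SD 0.377), 0.252 in HFpEF (SD 0.279), 0.233 in control 9w (SD 0.403), 0.164 in PFD (SD 0.232), 0.104 in EMPA + PFD (SD 0.181) and 0 in control 5w, and no gap between neighbours reached the larger SD. Cidec did not pass the filter of the fit, and in the 5 alternatives that kept it the adjusted p at week 5 was 0.187 to 0.210.

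Uncoupling protein 1, encoded by Ucp1, lets brown and beige fat cells release energy as heat. Ucp1 had 0 counts in all 9 control 5w, HFpEF and control 9w libraries, and in the later disease groups its counts were 0, 1 and 1 in untreated, 1 and 0 in EMPA, 4 and 0 in PFD, and 1, 0 and 6 in EMPA + PFD. Its 14 counts in all libraries together lay only in rats that had induction followed by gavage, and 10 of them in PFD replicate 1 and EMPA + PFD replicate 3. The pooled ratio of EMPA + PFD to untreated was 4.15 (0.790 to 40.9), an interval that includes 1. The means were 0.248 CPM in EMPA + PFD (SD 0.333), 0.219 in PFD (SD 0.310), 0.0666 in EMPA (SD 0.0941) and 0.0622 in untreated (SD 0.0552), all at or under the floor of single libraries.

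Fabp4 encodes a fatty acid carrier that is abundant in fat cells and is also made by capillary endothelium, including that of the heart, and by macrophages. Fabp4 stood at 932, 541 and 618 CPM in control 5w, 648, 3002 and 1957 in HFpEF, 2626, 3651 and 1341 in control 9w, 1656, 1285 and 1942 in untreated, 2558 and 1665 in EMPA, 2126 and 1731 in PFD, and 1202, 1183 and 1349 in EMPA + PFD. HFpEF replicates 2 and 3 lay above all control 5w libraries, while HFpEF replicate 1, the library with the most Adipoq of its group, lay within the control range. Every control 9w library lay above every control 5w library. At week 9 the 3 untreated libraries overlapped the controls, and the 3 EMPA + PFD libraries formed the tightest group.

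The Fabp4 means were 2539 CPM in control 9w (SD 1158), 2112 in EMPA (SD 632), 1929 in PFD (SD 279), 1869 in HFpEF (SD 1180), 1628 in untreated (SD 329), 1245 in EMPA + PFD (SD 91.1) and 697 in control 5w (SD 207). The gap between EMPA + PFD and control 5w was larger than either group's SD, and so was the gap between untreated and EMPA + PFD. The gaps between the other neighbours were smaller than the SD of at least 1 of the groups.

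Fabp4 was the 1 member of 8 called in disease at week 5, where 8.69% of the 12388 genes tested were called. Its log2 fold change was 1.42 ± 0.45 (SE) with an edgeR adjusted p of 0.0379, and 2 of 3 HFpEF libraries lay above every control. The call was lost without HFpEF replicate 2 (log2 0.90), HFpEF replicate 3 (1.39), control 5w replicate 2 (1.27), control 5w replicate 3 (1.34) or control 9w replicate 1 (1.42), with the compared groups alone (1.44) and with the replicate number as a block (1.42). In bulk samples, fewer cells of a type and less RNA per cell cannot be told apart.

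Over the 4 weeks between the control groups Fabp4 rose by a log2 fold change of 1.87 ± 0.46, with an adjusted p of 0.00675. It was the 1 member called in that comparison, against 14.7% of all genes tested, and it was called in all 27 settings, where the log2 value ranged from 1.51 to 2.39. At week 9 disease gave -0.64 ± 0.44 with an adjusted p of 0.473, and the value turned to 0.56 with Eif2s3y presence in the model. The disease effect at week 9 minus that at week 5 was -2.07 ± 0.63 with an adjusted p of 0.0329, so Fabp4 was also the 1 member called in the test of the difference between weeks, in which 12% of all genes were called. The comparisons share control libraries, and the rise in controls enters both the week 9 value and the difference. The call of the difference was lost without control 5w replicate 2 (-1.91) or 3 (-1.99), HFpEF replicate 2 (-1.55) or 3 (-2.03), control 9w replicate 1 (-2.04) or 2 (-1.71), or untreated replicate 1 (-2.08) or 3 (-2.22), and also with Eif2s3y presence in the model (-1.54), with the compared groups alone (-2.07) and with the replicate number as a block (-2.03).

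In the remaining comparisons edgeR called none of the 8 members, of which 4 (Adipoq, Cfd, Plin1 and Fabp4) passed the count filter and were tested. In disease at week 9 it called 0, where 0.912% of all genes were called, none had an unadjusted p under 0.05, and DESeq2 called 0. Over all genes, the 113 calls at week 9 became 413 without untreated replicate 2 and 14 without untreated replicate 1. They became 7 without control 9w replicate 2 and 2 with Eif2s3y presence in the model. Over both weeks together edgeR called 0 members (0.896% of all genes), 2 (Cfd and Plin1) had an unadjusted p under 0.05, and DESeq2 called 1, Cfd. EMPA + PFD against untreated gave 0 calls (3.82% of all genes), 2 members (Adipoq and Cfd) with an unadjusted p under 0.05, and 0 calls by DESeq2.

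No tested member passed the threshold with a single drug. EMPA alone against untreated gave 0 calls by edgeR (0.0404% of all genes) and PFD alone 0 (0.00807%), with no member at an unadjusted p under 0.05 and 0 calls by DESeq2 in either. Averaged over the presence of the other drug, 5 libraries against 5, the EMPA main effect gave 0 calls (0.0323% of all genes) and the PFD main effect 0 (1.04%), again with no member at an unadjusted p under 0.05 and 0 calls by DESeq2. For Fabp4 the log2 fold changes were 0.38 ± 0.49 with EMPA, 0.24 ± 0.49 with PFD and -0.39 ± 0.44 with both. The Fabp4 value with EMPA turned to -0.83 with Eif2s3y presence in the model. Over 27 settings the Fabp4 value with both drugs ran from -1.59 to -0.23. For Cfd the log2 fold changes were -0.70 ± 0.55, -0.88 ± 0.55 and -1.19 ± 0.49 in the same order. Without untreated replicate 2 the Cfd values turned to 0.26 with EMPA and 0.08 with PFD. These 3 comparisons share the untreated libraries.

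**Figure D2:**
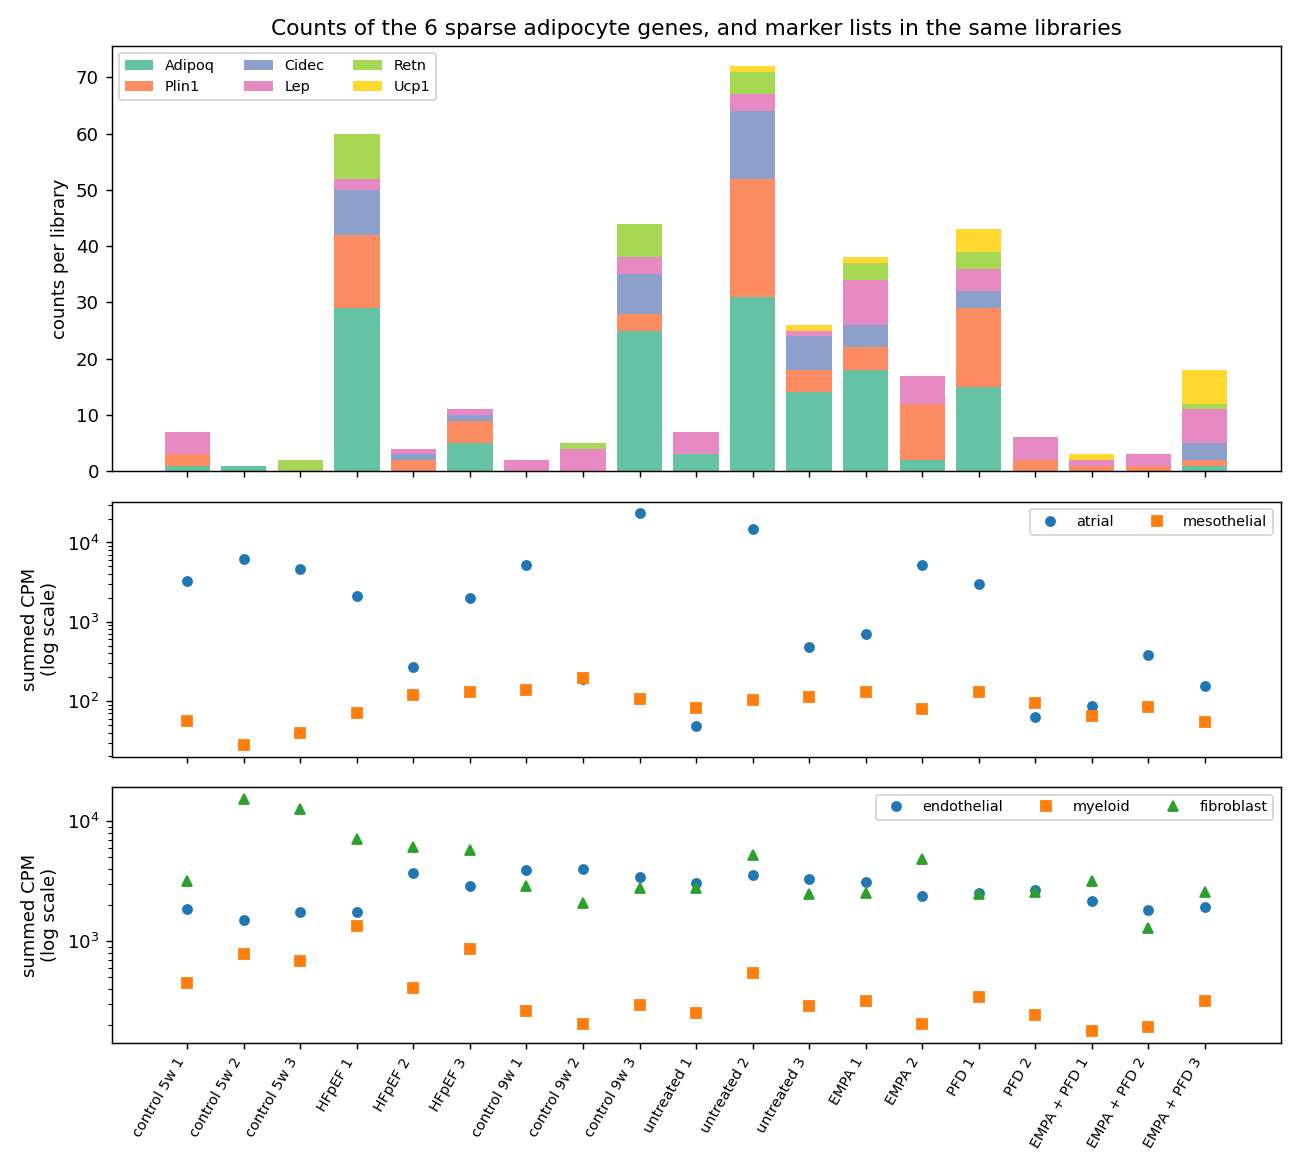
Upper panel: stacked counts of the 6 sparse members in each of the 19 libraries. Middle and lower panels: summed CPM of 5 marker lists in the same libraries on log axes. The 6 genes together had 72 counts in untreated replicate 2, 60 in HFpEF replicate 1 and 44 in control 9w replicate 3. They had 3, 3 and 18 in EMPA + PFD, 7, 1 and 2 in control 5w, and 2 in control 9w replicate 1.

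Cidec, Retn and Plin1 each varied with Adipoq from heart to heart, while their relations with one another were not tested. Over 19 libraries, Adipoq and Cidec had a Pearson r of 0.90 (permutation p = 3e-05, adjusted p = 0.0006 over 20 relations) and a Spearman rho of 0.81 (permutation p = 0.00012, adjusted 0.0024) in log2 CPM. Without control 9w replicate 3 and untreated replicate 2, the 2 libraries farthest from the median of Adipoq, r was 0.85. Within groups, as deviations from group means, r was 0.90 (permutation p = 0.00165, adjusted 0.033). In the 6 libraries with 10 or more Adipoq counts Cidec had 3 to 12 counts, and in the other 13 it had 0 to 3.

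Adipoq and Retn had r = 0.75 (permutation p = 0.00053, adjusted 0.00353) and rho = 0.59 (permutation p = 0.00923, adjusted 0.0615), with r = 0.65 without the same 2 libraries and 0.85 within groups (permutation p = 0.00959, adjusted 0.0793). Adipoq and Plin1 had r = 0.74 (permutation p = 0.00049, adjusted 0.00353) and rho = 0.72 (permutation p = 0.00101, adjusted 0.0101), with r = 0.73 without those libraries and 0.71 within groups (permutation p = 0.0168, adjusted 0.084). The relation with Plin1 had exceptions: EMPA replicate 2 held 10 Plin1 counts with 2 of Adipoq, and control 9w replicate 3 held 3 with 25.

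The relations of Cfd, Lep, Ucp1 and Fabp4 with Adipoq did not pass the adjusted threshold. Their Pearson r with Adipoq was 0.37 for Cfd (permutation p = 0.119, adjusted 0.397), 0.22 for Lep (permutation p = 0.355, adjusted 0.534), 0.25 for Ucp1 (permutation p = 0.306, adjusted 0.534) and 0.0034 for Fabp4 (permutation p = 0.988, adjusted 0.988). The rho values were 0.34 for Cfd (permutation p = 0.156), 0.26 for Lep (permutation p = 0.288), 0.36 for Ucp1 (permutation p = 0.128) and -0.04 for Fabp4 (permutation p = 0.867). Without the 2 farthest libraries r was 0.32 for Cfd, 0.25 for Lep, 0.33 for Ucp1 and 0.06 for Fabp4. Within groups r was 0.52 for Cfd (permutation p = 0.0484, adjusted 0.138), 0.48 for Ucp1 (permutation p = 0.0277, adjusted 0.11), 0.10 for Lep (permutation p = 0.597, adjusted 0.746) and -0.52 for Fabp4 (permutation p = 0.141, adjusted 0.256).

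Marker lists of other cells were read in the same libraries. The 3 libraries with the highest Adipoq counts also held the highest counts of 2 of the 4 mesothelial genes found, Msln and Krt19. Msln had 233 counts in HFpEF replicate 1, 48 in control 9w replicate 3 and 16 in untreated replicate 2, against at most 10 in the other libraries. Krt19 had 76, 10 and 57 counts in those 3 libraries and at most 7 elsewhere. Upk1b had 84, 5 and 8 there, and other libraries exceeded the last 2, with 51 in HFpEF replicate 3, 16 in HFpEF replicate 2 and 13 in EMPA replicate 2. Wt1, the most abundant gene of this list in every library, did not follow them, with 604, 1007 and 1183 counts and its highest count of 1576 in control 9w replicate 2. The list sum, mostly Wt1, was 71.5, 107 and 103 CPM in those 3 libraries and 27.7 to 194 elsewhere.

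In the atrial list Nppa held the most counts in 18 of 19 libraries. The list sum reached 23333 CPM in control 9w replicate 3 and 14868 in untreated replicate 2, with 25 and 31 Adipoq counts. HFpEF replicate 1, untreated replicate 3, EMPA replicate 1 and PFD replicate 1 held 29, 14, 18 and 15 Adipoq counts. Their list sums were 2085, 483, 698 and 2982 CPM. Sums were higher in control 5w (3283 to 6122), control 9w replicate 1 (5196) and EMPA replicate 2 (5170), with 0 to 2 Adipoq counts. The remaining libraries stood at 48.0 to 1968 CPM, with 0 to 5 Adipoq counts. Of the lists given here, across 19 libraries the summed CPM of Adipoq and Plin1 had r = 0.41 (rho 0.23) with the atrial list, 0.29 (rho 0.16) with the mesothelial list, 0.24 (rho 0.30) with the myeloid list and -0.30 (rho -0.23) with the list of other adipocyte genes. Within groups r was 0.75, -0.12, 0.63 and -0.43 in the same order. With the other lists given in this text r lay between -0.35 (ventricular muscle) and 0.22 (lymphoid), and within groups between -0.46 (brown and beige) and 0.53 (adipokine receptors). Not every list that was read is reported, so these values are no full ranking and name no closest list. No p is given for the 2 genes summed, which are among the 20 relations over which p was adjusted. The part of neighbouring atrial or epicardial tissue in the Adipoq, Plin1 and Cidec counts was not tested.

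Fabp4 and Cfd were set against the same lists after their values were seen. Fabp4 followed the endothelial list of 8 genes, in which Vwf held the most counts in 10 of 19 libraries, with r = 0.84 (permutation p = 1e-05, the smallest these permutations can give, adjusted 8.67e-05 over 26 relations) and rho = 0.81 (permutation p = 0.00013, adjusted 0.00113). Without control 5w replicates 2 and 3 r was 0.77, and within groups it was 0.84 (permutation p = 0.00888, adjusted 0.0385). The endothelial list stood at 1512 to 1847 CPM in control 5w and HFpEF replicate 1, at 1829 to 2168 in EMPA + PFD and at 3442 to 3993 in control 9w, with 3689 in HFpEF replicate 2. Untreated stood at 3038 to 3534. Exceptions were untreated replicate 2 and control 9w replicate 3. They had 3534 and 3442 CPM of the list but 1285 and 1341 CPM of Fabp4. Both Fabp4 values lay within the 1183 to 1349 of EMPA + PFD. Fabp4 also had r = 0.89 with the mesothelial list (permutation p = 1e-05, adjusted 8.67e-05), whose sum is mostly Wt1, with 0.81 without the same 2 libraries and 0.75 within groups (permutation p = 0.00473, adjusted 0.0385). With the myeloid list r was -0.54 (permutation p = 0.0161, adjusted 0.0322) and rho -0.31 (permutation p = 0.198, adjusted 0.331), with -0.39 without those libraries and -0.63 within groups (permutation p = 0.0511, adjusted 0.133). With the fibroblast list r was -0.57 (permutation p = 0.011, adjusted 0.0247) and rho -0.46 (permutation p = 0.0484, adjusted 0.111), with -0.20 without those libraries and -0.44 within groups (permutation p = 0.00505, adjusted 0.0385). With the brown and beige list r was 0.63 (permutation p = 0.00354, adjusted 0.0115) and rho 0.48 (permutation p = 0.0399, adjusted 0.104), with 0.51 without those libraries and 0.84 within groups (permutation p = 0.00301, adjusted 0.0385). With the list of other adipocyte genes r was 0.46 (permutation p = 0.0444, adjusted 0.077), with 0.25 without those libraries and 0.68 within groups (permutation p = 0.00636, adjusted 0.0385).

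Cfd followed the myeloid list of 10 genes, in which Csf1r held the most counts in 9 of 19 libraries, with r = 0.87 (permutation p = 1e-05, adjusted 8.67e-05) and rho = 0.87 (permutation p = 1e-05, adjusted 0.00013). Without HFpEF replicate 1 and untreated replicate 2 r was 0.82, and within groups it was 0.72 (permutation p = 0.00811, adjusted 0.0385). The myeloid list was highest in HFpEF replicate 1, at 1349 CPM, where Cfd was also highest, and lowest in EMPA + PFD replicate 1, at 178 CPM, where Cfd was also lowest. With the list of other adipocyte genes Cfd had r = -0.72 (permutation p = 0.00061, adjusted 0.00264) and rho = -0.64 (permutation p = 0.00435, adjusted 0.0188), with -0.51 without those 2 libraries and -0.45 within groups (permutation p = 0.226, adjusted 0.367). Of the other lists given here, Cfd had r = -0.77 with the brown and beige list (permutation p = 0.00019, adjusted 0.00123), -0.72 with ventricular muscle (permutation p = 0.00061, adjusted 0.00264), 0.63 with lymphoid (permutation p = 0.00345, adjusted 0.0115), 0.58 with adipokine receptor (permutation p = 0.00973, adjusted 0.0247) and 0.56 with fibroblast genes (permutation p = 0.0114, adjusted 0.0247). Within groups these were -0.52, -0.46, 0.31, 0.16 and 0.13, with adjusted p of 0.221, 0.36, 0.443, 0.684 and 0.684.

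**Figure D3:**
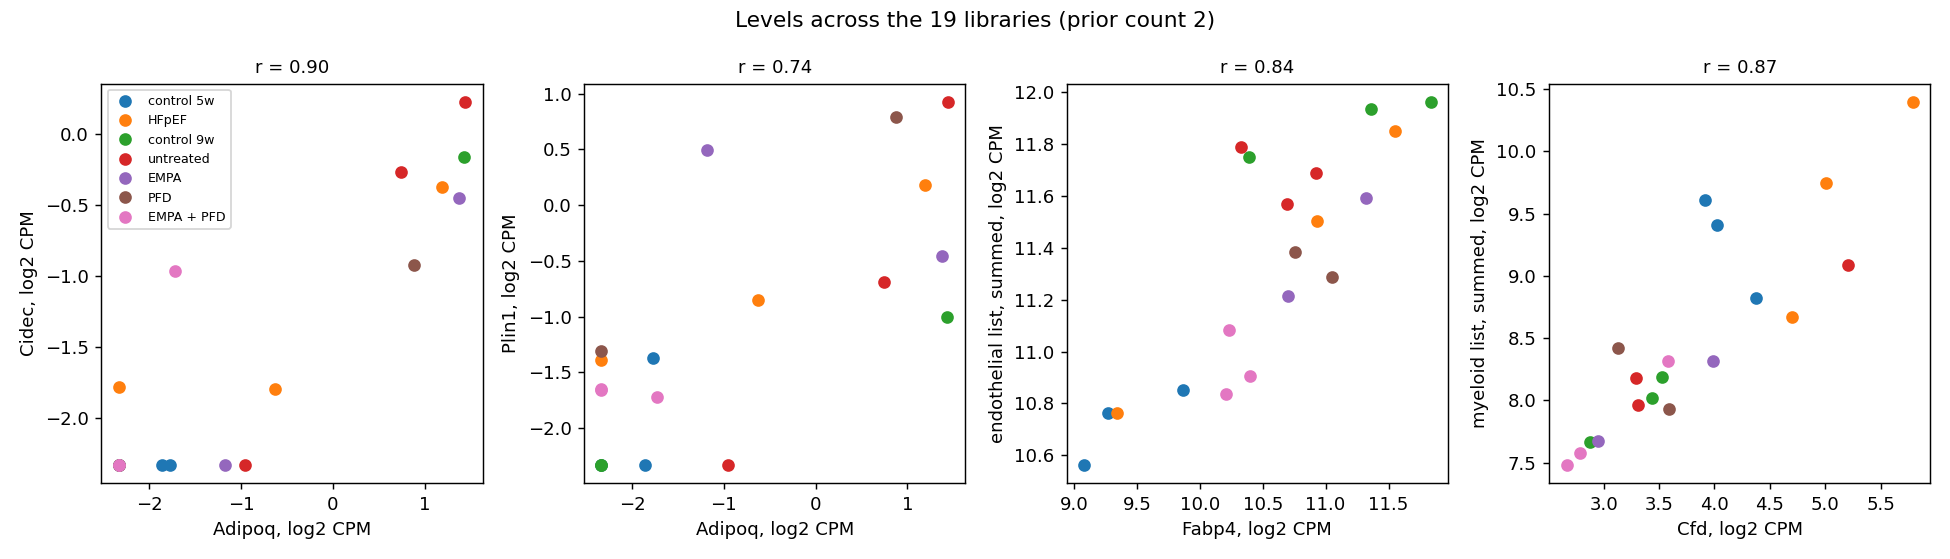
Log2 CPM of Adipoq against Cidec and Plin1, of Fabp4 against the summed endothelial list and of Cfd against the summed myeloid list, with 1 point for each of the 19 libraries coloured by group. The values of r are 0.90, 0.74, 0.84 and 0.87.

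The 10 genes whose log2 CPM was most like that of Adipoq and Plin1 summed, among 12384 tested genes outside the set, were Mmd2 (r = 0.77), Rbp4 (0.74), Asgr2 (0.71), Brinp2 (0.70), Cryzl1 (0.70), Slc5a3 (0.70), Fignl1 (0.70), Tfap2e (0.69), Gdf10 (0.69) and Hoga1 (0.69). The measure is Pearson's r over 19 libraries, taken as a ranking without a test. Rbp4, which encodes the retinol carrier of blood and is made by liver and fat cells, had 139 counts in HFpEF replicate 1, 41 in EMPA replicate 2 and 23 in untreated replicate 2, and at most 12 elsewhere. Mmd2 had 15 counts in HFpEF replicate 1 and 14 in untreated replicate 2. HFpEF replicate 1 held the highest count of 6 of the 10 genes, untreated replicate 2 of 3 and control 9w replicate 3 of 1.

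A wider list of 31 adipocyte genes, which includes enzymes and transporters that heart muscle also makes, had 27 genes in the files and 22 tested. Lpl, the lipoprotein lipase of heart and fat, held the most counts in every library. In disease at week 5, where 8.69% of all genes were called, 5 of the 22 rose and none fell, with a median log2 fold change of 0.20 against 0.02 for all genes. By edgeR the risers were Lipe, the hormone-sensitive lipase (1.92 ± 0.34, adjusted p = 0.00263), Trarg1, a regulator of glucose transporter traffic (1.38 ± 0.31, adjusted p = 0.00918), Pparg, the master regulator of fat cell formation (1.37 ± 0.30, adjusted p = 0.00827), Mgll, which splits monoglycerides (1.02 ± 0.32, adjusted p = 0.0356), and Rbp4 (adjusted p = 0.0409). Lipe, Trarg1 and Pparg were called with each of the 19 libraries left out in turn. Pparg was lost with the compared groups alone (1.39), and Trarg1 with Eif2s3y presence in the model (0.78).

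Rbp4 had 139, 1 and 6 counts in HFpEF and 1, 0 and 2 in control 5w, a pooled ratio of 48.7 (16.3 to 239), and either end of that interval leaves the median of the list as given. The ratio rested on HFpEF replicate 1, and the call was lost without that library, without control 5w replicate 1, 2 or 3, without control 9w replicate 1 and without PFD replicate 1 or 2. With Eif2s3y presence in the model the call was lost with a fitted log2 value of 0.12, and with the replicate number as a block it was lost at 5.18. The fitted log2 value, which depends on the prior count at such levels, was 1.77 without HFpEF replicate 1 and 4.67 to 6.02 without each of the other 6 libraries. Mgll was lost without HFpEF replicate 2 (0.70) or 3 (0.94), without control 5w replicate 2 (0.85) or 3 (0.92), with the compared groups alone (1.03) and with the replicate number as a block (1.01).

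Like Fabp4, Lipe and Pparg rose in controls between the weeks, by log2 values of 2.08 ± 0.34 and 1.79 ± 0.30, and their disease effects differed between weeks, by -2.15 ± 0.46 and -1.82 ± 0.42. Lipe stood at 64.1 to 76.4 CPM in control 5w, 139 to 359 in HFpEF and 182 to 411 in control 9w. Pparg stood at 9.31 to 11.7 CPM in control 5w, 14.9 to 36.1 in HFpEF and 22.0 to 49.2 in control 9w. HFpEF replicate 1 was the lowest HFpEF library for Lipe, Pparg and Fabp4 alike. Trarg1 also differed between weeks, by -1.87 ± 0.44, making 3 of 22 genes lower and none higher in that test, in which 12% of all genes were called, with a median of 0.17 against -0.02. The 3 calls of the difference held with each library left out in turn.

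In the time comparison 5 of the 22 genes rose and 2 fell, with a median of 0.17 against -0.04 for all genes. Lipe, Pparg and Mgll (1.39) were called with each library left out in turn. Dgat2, which makes triglyceride, rose by 1.75 and was lost without control 5w replicate 2 (1.60) or control 9w replicate 2 (1.51). Trarg1 rose by 1.01 and was lost without control 5w replicate 1 (0.96), 2 (1.03) or 3 (1.05) or control 9w replicate 1 (0.91), or without the 3 libraries high in Sln (0.82). Cebpa, a C/EBP factor of fat cell formation, had -2.18 and was lost without control 9w replicate 2 (-1.85). G0s2, an inhibitor of the lipase Pnpla2, had -1.47 and was lost without control 5w replicate 1 (-1.33), 2 (-1.53) or 3 (-1.54) or control 9w replicate 1 (-1.40) or 2 (-1.28), or without the 3 libraries high in Sln (-1.95). Of this list 7 of 22 genes were thus called between the controls, where 14.7% of all genes were called, against 5 of 22 in disease at week 5, where 8.69% were, and the 2 comparisons share the control 5w libraries.

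Disease at week 9, where 0.912% of all genes were called, gave 0 of the 22 genes by edgeR (median 0.26 against 0.01 for all genes), with 3 genes at an unadjusted p under 0.05 and 0 calls by DESeq2. Over both weeks (0.896% of all genes called) the counts were 0, 6 and 0 in the same order, with EMPA alone (0.0404%) 0, 1 and 0, with PFD alone (0.00807%) 0, 0 and 0, for the EMPA main effect (0.0323%) 0, 1 and 0, and for the PFD main effect (1.04%) 0, 9 and 2. Of all 12388 genes, 2259 had an unadjusted p under 0.05 at week 9, 2387 over both weeks, 1069 with EMPA alone, 646 with PFD alone, 1215 for the EMPA main effect and 3757 for the PFD main effect.

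With EMPA + PFD, where 3.82% of all genes were called, 2 of the 22 rose and none fell, with a median of 0.05 against -0.03 for all genes, while 9 had an unadjusted p under 0.05, as did 4056 of all 12388 genes, and DESeq2 called 4. By edgeR they were Pnpla2, the first lipase of triglyceride breakdown (1.67 ± 0.49, adjusted p = 0.0428), and Dgat2 (1.57 ± 0.47, adjusted p = 0.0436). Pnpla2 stood at 25.9, 46.5 and 37.2 CPM in EMPA + PFD and 16.2, 5.19 and 13.3 in untreated, and these groups did not overlap. The Pnpla2 call was lost without control 5w replicate 3 (1.66), control 9w replicate 1 (1.66), untreated replicate 2 (1.31) or 3 (1.80) or EMPA + PFD replicate 2 (1.47) or 3 (1.68), and also with the compared groups alone (1.65), with Eif2s3y presence in the model (1.58) and without the 3 libraries high in Sln (1.31). The Dgat2 call was lost without control 5w replicate 2 or 3, control 9w replicate 1, untreated replicate 2 or 3, EMPA replicate 1 or 2, or EMPA + PFD replicate 2 or 3, with values from 1.22, when EMPA + PFD replicate 3 was left out, up to 1.59. It was lost as well with the compared groups alone (1.56), the replicate number as a block (1.63), Eif2s3y presence in the model (2.44) and without the 3 libraries high in Sln (1.25). Over all genes, the 473 calls with EMPA + PFD became 910 without untreated replicate 1 and 83 without untreated replicate 2. They became 59 without EMPA + PFD replicate 2, 34 without the 3 libraries high in Sln and 5 with the compared groups alone.

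Other brown and beige fat genes were read as a list. Elovl3, an elongase of brown fat, had at most 1 count and Otop1 at most 3 in any library, while Cidea and Cox8b, which rodent heart makes in quantity, were in every library at 332 to 1723 and 1635 to 8640 counts. Of 5 tested genes, edgeR called 2 lower in disease at week 5, where 8.69% of all genes were called, with a median of -1.26 against 0.02: the potassium channel gene Kcnk3 (-2.40 ± 0.43, adjusted p = 0.00297) and Ppargc1a, a coactivator of mitochondrial biogenesis (-1.91 ± 0.38, adjusted p = 0.00523). Both calls held with each library left out in turn, and that of Ppargc1a was lost with Eif2s3y presence in the model (-1.91). By edgeR Ppargc1a rose with EMPA + PFD (2.04 ± 0.37, adjusted p = 0.00883), and so did Kcnk3 (1.52 ± 0.41, adjusted p = 0.032), the latter lost without untreated replicate 2 or 3 or EMPA + PFD replicate 2 or 3 (1.10 to 1.66). Both of these calls were lost with the compared groups alone (2.03 for Ppargc1a and 1.51 for Kcnk3), with Eif2s3y presence in the model (2.05 and 1.75) and without the 3 libraries high in Sln (1.76 and 1.11). The median with EMPA + PFD, where 3.82% of all genes were called, was 0.83 against -0.03. The PFD main effect, beside 1.04% of all genes, also called Kcnk3 (1.47) and Ppargc1a (1.30) higher. Over both weeks, beside 0.896%, Ppargc1a was called lower (-1.15). Of the 19 fits with each library left out, these calls held in 12, 11 and 8. All were lost without the 3 libraries high in Sln. Kcnk3 also fell between the controls (-1.87 ± 0.42), and its disease effect at week 9 minus that at week 5 was 3.07 ± 0.60, both called with each library left out in turn. Dio2, an activator of thyroid hormone, had -3.17 ± 0.82 between the controls, lost without the 3 libraries high in Sln (-3.03).

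Receptors for the adipokines were present throughout. The 6 genes of this list (Adipor1, Adipor2, Cdh13, Lepr, Cap1 and Tlr4) were all tested, and edgeR called 0 of 6, and DESeq2 0 of 6, in each of the 10 comparisons. At an unadjusted p under 0.05 there were 4 with EMPA + PFD, beside 4056 of all 12388 genes, 4 for the PFD main effect, beside 3757, 0 with EMPA or PFD alone and 1 in each of the other 6 comparisons, with a median of -0.19 against 0.02 for all genes at week 5 and -0.43 against -0.03 with EMPA + PFD. Adipor1, the first adiponectin receptor, held the most counts of the list in 10 libraries, with Cap1 first in the other 9, and stood between 167 and 263 CPM. Its lowest value fell in untreated replicate 2, the library with the most Adipoq. The next lowest were 180 CPM in EMPA replicate 2 and 185 in control 9w replicate 2, with 2 and 0 Adipoq counts. Control 9w replicate 3 and PFD replicate 1, with 25 and 15 Adipoq counts, stood at 212 and 253 CPM.

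Among genes that respond to fatty acids, Angptl4, an inhibitor of lipoprotein lipase, was called by edgeR in disease at week 5 (5.36 ± 0.44, adjusted p = 5.04e-05), where Adipoq was not. In that comparison 8.69% of all genes were called. Only part of this list is reported, so no count or median is given for it. Angptl4 stood at 1.22, 1.32 and 0.955 CPM in control 5w and 71.3, 23.7 and 49.8 in HFpEF, so the groups did not overlap, and its call held with each library left out in turn. In control 9w it stood at 9.92, 11.8 and 7.97 CPM. It rose between the controls by 3.07 ± 0.44, and its disease effect at week 9 minus that at week 5 was -4.56 ± 0.56, both called with each library left out in turn. Of all genes 14.7% were called between the controls and 12% in the difference. Plin2, of the same list, fell between the controls (-1.30 ± 0.22, edgeR adjusted p = 0.000705). Its call also held with each library left out in turn. In EMPA + PFD edgeR called Pdk4, a brake on glucose oxidation (2.14 ± 0.60), and Angptl4 (1.97 ± 0.35) higher than in untreated. There 3.82% of all genes were called. Pdk4 was lost without untreated replicate 2 (1.78) or 3 (2.30) or EMPA + PFD replicate 2 (1.86) or 3 (1.95), and Angptl4 was called with each library left out in turn. Both were lost with the compared groups alone (2.13 for Pdk4 and 1.96 for Angptl4) and without the 3 libraries high in Sln (1.78 and 2.06), and Pdk4 also with Eif2s3y presence in the model (3.92).

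The cell type lists moved with the week 5 comparison as well, in which 8.69% of all genes were called. Of 4 mesothelial genes 3 rose, of 6 lymphoid genes 3 and of 8 endothelial genes 2, while 1 of 8 ventricular muscle genes fell, and none of the 10 myeloid, 6 fibroblast, 5 atrial or 3 erythroid genes was called. At an unadjusted p under 0.05 there were 0 myeloid, 1 fibroblast, 1 atrial and 0 erythroid genes, and DESeq2 called 1 atrial gene and none of the other 3 lists. In the lists with calls by edgeR, DESeq2 called 4 mesothelial, 4 lymphoid, 2 endothelial and 3 ventricular muscle genes. The medians were 4.38 for mesothelial genes (4.25 with Krt19, at 0 in control 5w, set to its bound against the floor), 1.43 for lymphoid, 0.73 for endothelial, -1.19 for ventricular muscle, 0.54 for myeloid, 0.06 for fibroblast, -1.57 for atrial and 0.63 for erythroid genes, against 0.02 for all genes. Upk1b and the lymphoid gene Cd2 were called with each library left out in turn, and both were lost with Eif2s3y presence in the model (2.23 and 1.49). Without HFpEF replicate 1 the values were 1.40 for Msln, 1.06 for Lck, 1.39 for Cd3g and -1.01 for Ryr2, and each of these 4 calls was lost. The endothelial calls were lost without control 5w replicate 2 (Egfl7 1.00) or 3 (Egfl7 1.06), HFpEF replicate 2 (Egfl7 0.73), control 5w replicate 1 (Vwf 0.91) or HFpEF replicate 3 (Vwf 0.94).

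Other single libraries ended calls in these lists at week 5 too. For Msln they were control 5w replicates 1, 2 and 3 (4.59 to 5.93), and for Wt1 control 5w replicates 2 and 3 and HFpEF replicates 2 and 3 (0.99 to 1.22). For Ryr2 they were control 5w replicate 1 and HFpEF replicate 2 (-1.12 and -1.11), for Cd3g control 5w replicates 1, 2 and 3 and HFpEF replicate 3 (1.29 to 1.77), and for Lck control 5w replicates 1, 2 and 3 and HFpEF replicates 2 and 3 (1.14 to 1.37). With Eif2s3y presence in the model Msln (1.67), Wt1 (1.54), Cd3g (1.15), Lck (0.98), Vwf (1.00) and Ryr2 (-1.53) were lost. With the compared groups alone Wt1 (1.25), Cd3g (1.58), Egfl7 (1.16) and Ryr2 (-1.24) were, and with the replicate number as a block Msln (4.79), Wt1 (1.25), Cd3g (1.55) and Lck (1.21).

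In controls between the weeks, where 14.7% of all genes were called, 6 of 8 endothelial genes rose by edgeR, with a median of 1.15, 5 of 10 myeloid genes fell, with a median of -1.37, and 4 of 6 fibroblast genes fell, with a median of -1.59, against -0.04 for all genes, beside the rise of Fabp4 and a Cfd log2 value of -0.82 ± 0.48 (adjusted p = 0.2). Of these calls Tie1 was lost without control 5w replicate 2 (0.98) or control 9w replicate 2 (0.84), C1qa without control 9w replicate 2 (-1.41), and Cd68 without control 5w replicate 2 (-1.38) or control 9w replicate 1 (-1.56) or 2 (-1.61). Without the 3 libraries high in Sln the calls of Vwf (0.75) and Cd68 (-1.74) were lost. Of the fibroblast genes Col1a1 had 5269, 127604 and 100202 counts in control 5w and 2877, 1670 and 4030 in control 9w, a log2 value of -4.30 that was lost without the 3 libraries high in Sln (-4.90). Lum (-2.29) held in each of those fits. Pdgfra was lost without control 5w replicate 2 (-1.13) or control 9w replicate 2 (-1.15), and Pi16 without control 5w replicate 2 (-1.42) or 3 (-1.63) or control 9w replicate 1 (-1.70) or 2 (-1.67), with the compared groups alone (-1.79) and without the 3 libraries high in Sln (-2.15). Of the mesothelial genes 1 of 4 rose, Wt1 (1.84), which held with each library left out in turn, and the list median was 2.72 (2.07 with Krt19 at its bound). Of the atrial genes 2 of 5 rose, with a median of 4.59. These were Bmp10 and Sln, both lost without the 3 libraries high in Sln (1.45 and -0.37), and Sln also without control 5w replicate 1 (7.30) or 3 (7.50) or control 9w replicate 3 (5.91). The part of these lists in the Fabp4 rise was not tested.

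With EMPA + PFD, beside the 3.82% of all genes called, edgeR called 1 of 8 ventricular muscle genes higher (Ryr2, 1.10), 1 of 3 erythroid genes higher (Slc4a1, 3.74), 2 of 5 atrial genes lower (Sln, -8.32, and Myl4, -7.00), 1 of 8 endothelial genes lower (Egfl7, -1.08), 1 of 6 fibroblast genes lower (Pi16, -2.52), and none of the 10 myeloid, 6 lymphoid or 4 mesothelial genes. The medians were 0.83 for ventricular muscle, 0.54 for erythroid, -6.45 for atrial, -0.73 for endothelial, -0.58 for fibroblast, -0.75 for myeloid, -1.35 for lymphoid and -1.33 for mesothelial genes, against -0.03 for all genes. In the same order of lists 1, 1, 5, 6, 1, 4, 3 and 1 genes had an unadjusted p under 0.05, and DESeq2 called 1, 1, 5, 1, 1, 0, 2 and 0. Without untreated replicate 2, the untreated library high in Sln, the values were 0.16 for Sln, -0.14 for Myl4, 0.81 for Ryr2 and -1.75 for Pi16, and these 4 calls and that of Egfl7 were lost. With each of the 19 libraries left out in turn the calls held in 6 fits for Ryr2, 19 for Slc4a1, 7 for Sln, 4 for Myl4, 9 for Egfl7 and 16 for Pi16. With the compared groups alone those of Ryr2 (1.09), Slc4a1 (3.72), Myl4 (-7.01), Egfl7 (-1.09) and Pi16 (-2.53) were lost. The part of these lists in the Cfd, Adipoq and Plin1 values was not tested.

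The relations of Plin1, Cidec and Retn with Adipoq passed the adjusted threshold of Pearson's r over the 19 libraries, and within groups only that of Cidec did. The promoters of Adipoq and of these genes are shown. Each is 300 bases long and spans the gene's start, as RefSeq gives it for the GRCr8 build. Entries were found for 7 of the 8 genes, all but Fabp4. Each was searched on both strands for AGGTCA, the core hexamer of nuclear receptors such as PPARG, and for TTGCNNAA, a core bound by C/EBP factors. AGGTCA was in 1 of the 7 promoters (Retn, 2 times) against 16.2% of 33469 promoters of this length, and TTGCNNAA in 3 (Lep, Plin1 and Cidec) against 10.6%. Adipoq, Cfd and Ucp1 had neither. The promoters lie at chr11:91240120-91240419 on the - strand for Adipoq, chr1:143086099-143086398 on the - strand for Plin1, chr4:148137066-148137365 on the - strand for Cidec and chr12:6508524-6508823 on the + strand for Retn. Capitals mark the matches, which describe the letters and are not shown to be bound sites.
Adipoq: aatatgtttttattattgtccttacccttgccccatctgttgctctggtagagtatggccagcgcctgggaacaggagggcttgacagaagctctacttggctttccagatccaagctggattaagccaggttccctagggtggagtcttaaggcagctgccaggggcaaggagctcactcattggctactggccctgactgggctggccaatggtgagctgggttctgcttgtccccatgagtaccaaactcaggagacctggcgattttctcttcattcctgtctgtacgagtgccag
Plin1: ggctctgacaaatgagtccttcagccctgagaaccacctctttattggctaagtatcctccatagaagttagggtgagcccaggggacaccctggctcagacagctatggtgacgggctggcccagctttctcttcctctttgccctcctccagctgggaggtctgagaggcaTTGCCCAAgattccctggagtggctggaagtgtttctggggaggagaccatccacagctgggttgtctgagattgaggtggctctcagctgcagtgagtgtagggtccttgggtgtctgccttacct
Cidec: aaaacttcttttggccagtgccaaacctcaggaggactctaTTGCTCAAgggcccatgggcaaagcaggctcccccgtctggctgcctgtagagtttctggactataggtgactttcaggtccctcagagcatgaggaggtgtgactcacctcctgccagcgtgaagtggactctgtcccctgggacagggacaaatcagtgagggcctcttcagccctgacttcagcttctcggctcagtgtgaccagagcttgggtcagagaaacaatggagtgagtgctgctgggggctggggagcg
Retn: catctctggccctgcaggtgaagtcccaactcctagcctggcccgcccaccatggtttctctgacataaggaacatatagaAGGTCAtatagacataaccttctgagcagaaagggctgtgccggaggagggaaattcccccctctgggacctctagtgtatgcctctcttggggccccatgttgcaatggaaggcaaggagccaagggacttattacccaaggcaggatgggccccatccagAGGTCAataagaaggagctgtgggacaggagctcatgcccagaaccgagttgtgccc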

How the data were processed

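RNA sequencing of 19 rat heart libraries in 7 groups was read as read counts per gene, which the authors deposited after trimming reads with Trim Galore, aligning them with HISAT2 to the rn6 genome and counting with htseq-count on Galaxy; versions were not stated. In R 4.3.3, edgeR 4.0.16 fitted all 7 groups in 1 quasi-likelihood model with trimmed mean of M-values scaling and filterByExpr (minimum count 10, minimum total 15), and p was adjusted by Benjamini-Hochberg over the 12388 genes tested. A gene was called at an adjusted p under 0.05 with a log2 change of 1 or more either way. Relations used log2 CPM (prior count 2) and 1e+05 permutations. Library totals of 7430539 to 13017754 counts put the floor of 3 counts at 0.215 to 0.399 CPM. Alternatives were DESeq2 1.42.0, other scalings and prior counts, no low-count filter, adjusted p alone, the compared groups alone, replicate number as a block, Eif2s3y presence as a term, and each library left out. Members and lists were chosen with earlier results of these data known. The relations of Fabp4 and Cfd with lists, and the fit without the 3 libraries with 1000 or more Sln counts, were chosen after seeing the data. Genes named were the 8 members, up to 6 called genes a list by log2 change and the 10 most like Adipoq and Plin1 summed, and any other gene named was chosen after its values were seen. Results of some listed genes are not reported.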

Additional observations from a re-analysis of the deposited data

Results flagged for a closer look

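The disease effect on Fabp4 at week 9 differed from that at week 5 by a log2 fold change of -2.066 (SE 0.63, edgeR adjusted p = 0.0329 over all genes tested), from the test of the difference between weeks between 12 libraries of 1 fit. This is a difference between 2 time points under the same contrast. The effect itself was 1.42 at week 5 and -0.64 at week 9, and Fabp4 rose by 1.87 between the control groups, which enter both effects. With Eif2s3y presence as a term, which HFpEF replicate 2 against replicates 1 and 3 alone sets, the difference was -1.54. The week 9 effect then turned to 0.56, so its sign no longer differed from that of the main fit at week 5. Replicate number as a block, the compared groups alone, Eif2s3y presence as a term and leaving out any 1 of 8 libraries each ended the call, as given above. In the same test, where 12% of all genes were called, 3 of 8 endothelial genes (list median -1.01), 2 of 4 mesothelial, 1 of 6 lymphoid and 2 of 3 erythroid genes were called lower and 1 of 8 ventricular muscle genes higher. Pecam1 (-1.26), Cd2 (-2.04), Alas2 (-3.57) and Hbb (-3.29) were called in all 19 fits with each library left out, Egfl7 (-1.31) in 5, Emcn (-1.42) in 10, Msln (-7.13) in 13, Wt1 (-1.84) in 13 and Ryr2 (1.48) in 9. The part of these lists in the Fabp4 difference was not tested.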

How the results depend on the processing

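The number of members called in the controls between weeks was 1 in all 27 settings, and it was 0 in all 27 for disease at week 9, EMPA alone, PFD alone and both main effects. In disease at week 5 the number called was 1, against 0 with only the compared groups, 0 with the replicate block, 2 without the 3 libraries high in Sln (Cfd and Fabp4, a fit chosen after seeing the data) and 0 to 2 with each library left out. Over both weeks together it was 0, against 1 with DESeq2 (Cfd). In the test of the difference between weeks it was 1, against 0 with only the compared groups, 0 with the replicate block, 0 with Eif2s3y presence as a term, and 0 to 1 with each library left out. With EMPA + PFD it was 0, and 0 to 1 with each library left out. The shares of all genes called given in this text are those of the main fit, and they moved between settings too. At week 5, for example, 1076 genes were called in the main fit and 460 with only the compared groups. The cause was not tested. The group with the highest mean stayed the same for 4 to 8 of the 8 members with each library left out, and 3 of 20 relations passed an adjusted p of Pearson's r under 0.05 in all 4 settings. Of the group and comparison results over all alternatives 269 kept their value or side of the threshold and 24 moved, and of the values for single genes 3162 kept it, 111 moved, 6 came to pass the threshold, 170 no longer passed and 43 changed direction, none of the 43 past the threshold in either setting. Only HFpEF holds libraries with and without Eif2s3y, so that term is set by HFpEF replicate 2 against replicates 1 and 3 and shifts each comparison between groups that differ in Eif2s3y by that 1 estimate. With Eif2s3y presence as a term these log2 values changed direction: Adipoq in disease at week 5 (-2.455), week 9 (-5.971) and both weeks (-4.213), with EMPA alone (6.545), EMPA + PFD (1.831) and the EMPA main effect (4.609), Cfd with EMPA alone (0.06119) and the EMPA main effect (0.2568), Plin1 for the EMPA main effect (0.4982), and Fabp4 at week 9 (0.563) and with EMPA alone (-0.8291). Without the 3 libraries high in Sln it changed for Adipoq in the difference between weeks (2.486), the controls between weeks (-2.449) and EMPA alone (0.5333), for Plin1 in the first 2 of these (1.25 and -2.464), and for Cfd with EMPA alone (0.2635) and PFD alone (0.07926). With each library left out, values of both signs were found for Adipoq in the difference between weeks (-3.664 to 3.187), the controls (-2.456 to 4.256), EMPA alone (-2.527 to 0.7105), PFD alone (-6.898 to 0.1605) and the EMPA main effect (-3.286 to 0.9289), for Plin1 in the difference between weeks (-2.741 to 3.012), the controls (-2.471 to 3.289), EMPA alone (-0.4689 to 1.999) and PFD alone (-1.798 to 1.967), for Cfd at week 9 (-0.01206 to 1.268), in the difference between weeks (-1.153 to 0.1931), EMPA alone (-1.316 to 0.2647) and PFD alone (-1.209 to 0.07939), and for Fabp4 in the EMPA main effect (-0.2993 to 0.009872). Fitted values of Adipoq and Plin1 in groups with 3 counts or fewer depend on the prior count. The cause of these changes was not tested. Replicate numbers did not pair the samples: over 52 pairs of libraries with the same number 11 had r above 0.1, the mean r was -0.0490 against 0.0223 for other numbers, and 1 of 19 libraries was most like one with its own number. At this depth Retn, Cidec and Ucp1 mostly lay under the floor of 0.215 to 0.399 CPM. Lep lay above the floor of 3 counts in 8 of 19 libraries, with at most 8 counts. At such levels single libraries give no usable fold change. Ratios printed for these genes rest on pooled counts and cover counting error only. The groups held 2 or 3 libraries each. Where leaving out 1 of 2 EMPA or PFD libraries left 1, that library was assumed to vary like the other groups.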
